A study of Mus musculus with 24 samples.

Results

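Genes of the choroid plexus were followed in the forebrain of TgCRND8 mice, a transgenic model of Alzheimer's disease, and of wild-type littermates. The transgene is APP bearing both the Swedish and the Indiana mutation. The set had 8 members named for their known place in this tissue, Ttr, Folr1, Clic6, Aqp1, Slc4a5, Kl, Otx2 and Enpp2. A member was measured where a probe set carried its symbol and no other, and its brightest such probe set gave its main value. By this rule 7 of the 8 were measured among 18193 genes, and Enpp2 was not analysed here.

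The groups were TgCRND8 and littermate controls at 70 days of age, TgCRND8 and controls at 80 days, and TgCRND8 and controls at 150 days. Every group held 4 mice, each measured on its own array, which makes 24 arrays. Forebrain was the part left after olfactory bulb, cerebellum and brainstem had been cut away from frozen brains. The labels do not say whether the choroid plexus of the ventricles was kept whole, and the sources used here do not name the promoter of the transgene.

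The choroid plexus is a folded epithelium inside the brain ventricles that secretes cerebrospinal fluid and passes selected hormones, vitamins and ions from blood into it. It is known as the main site of transthyretin synthesis in the brain.

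Sequence upstream of 2 members is shown because the homeodomain protein OTX2 is itself a member and is known to act in choroid plexus development. OTX2 is known to bind the letters TAATCC, and TAATC is the 5-letter core contained in them. Both were searched on both strands in RefSeq promoter windows of GRCm38.p6, which run from 250 bases before to 50 bases after a gene's start and were held for 4 of the measured members. Capitals mark TAATC or its reverse complement. The Kl window is chr5:150952357-150952656 on the plus strand, and the Otx2 window, 1 of 4 start sites listed, is chr14:48665060-48665359 on the minus strand.
Kl: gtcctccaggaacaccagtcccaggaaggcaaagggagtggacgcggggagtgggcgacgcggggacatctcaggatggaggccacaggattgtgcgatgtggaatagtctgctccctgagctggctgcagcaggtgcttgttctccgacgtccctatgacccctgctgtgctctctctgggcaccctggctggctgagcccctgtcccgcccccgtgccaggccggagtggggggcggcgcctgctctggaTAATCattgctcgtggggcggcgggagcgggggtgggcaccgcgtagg
Otx2: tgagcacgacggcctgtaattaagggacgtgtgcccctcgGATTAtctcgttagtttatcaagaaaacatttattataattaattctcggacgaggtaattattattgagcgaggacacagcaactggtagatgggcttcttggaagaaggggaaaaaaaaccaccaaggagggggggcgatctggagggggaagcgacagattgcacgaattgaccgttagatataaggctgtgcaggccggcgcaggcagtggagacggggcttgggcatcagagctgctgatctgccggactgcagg
The core stood 2 bases after the start of Kl. In Otx2 it stood at position -210 from this start as part of TAATCC, read on the opposite strand. The windows of Aqp1 and Slc4a5 and the other 3 of Otx2 held neither. Among 32851 windows of the same length, 22% held TAATC and 7.06% held TAATCC. A match is a description of these letters only.

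Of the 7 measured members, Ttr, Folr1 and Clic6 lay above the lower quartile of their array in all 24 arrays, and Kl in all but 1. The lower quartiles themselves ranged from 3.15 to 3.32 log2. Slc4a5 lay below that quartile in all 24 arrays, Otx2 in 16 and Aqp1 in 10, so for these 3 genes small differences may not be measurable. Of 37 other genes known from this epithelium, the potassium channel gene Kcnj13 (mean 5.32 log2) and Sostdc1 (mean 4.89 log2), a secreted inhibitor, also lay above the quartile in every array. Not all of the 37 did, and 4 lay below it in most arrays. These were Slco1a5 and Col8a2 (all 24 arrays), Lmx1a (19) and F5 (16). Others, such as Krt18 (11) and Kcne2 (10), lay below it in fewer.

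Ttr, the carrier of thyroid hormone and of the retinol-binding protein, was read by probe set 1454608_x_at at 11.9 to 13.1 log2 over 24 arrays. At day 70 it read 12.75, 12.82, 12.46 and 12.36 in TgCRND8, against 12.88, 12.57, 12.14 and 12.81 in controls. At day 80 it read 12.97, 12.35, 12.46 and 12.84 in TgCRND8, against 12.89, 12.47, 11.88 and 12.58 in controls. At day 150 it read 12.99, 12.24, 12.66 and 12.43 in TgCRND8, against 12.93, 12.68, 12.70 and 13.05 in controls. The genotypes overlapped at every age. The lowest and highest control arrays of day 80 differed by 1.01 log2, or 2.02-fold, while TgCRND8 arrays of that day spanned 0.63 log2. All values are log2 signals, and in whole forebrain fewer choroid plexus cells and less RNA per cell cannot be told apart.

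Folr1, the receptor that carries folate across this epithelium, was read by 1450995_at. Its values were 4.60, 4.37, 4.43 and 4.54 in TgCRND8 of day 70, against 4.49, 4.53, 4.18 and 5.05 in controls. At day 80 they were 4.71, 4.58, 4.54 and 4.89 in TgCRND8, against 4.65, 4.44, 4.13 and 4.58 in controls. At day 150 they were 4.67, 4.37, 4.43 and 4.34 in TgCRND8, against 4.66, 4.41, 4.54 and 4.54 in controls. The genotypes overlapped at each age, and both the highest (5.05) and nearly the lowest (4.18) values of Folr1 came from the same group, the day 70 controls.

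Clic6, a member of the chloride intracellular channel family, was read by 1454866_s_at. It measured 6.18, 6.0, 6.07 and 6.06 in TgCRND8 of day 70, against 6.18, 6.20, 5.75 and 6.68 in controls. At day 80 it measured 6.27, 5.71, 6.33 and 6.10 in TgCRND8, against 6.10, 6.02, 5.51 and 6.08 in controls. At day 150 it measured 6.35, 5.64, 6.01 and 5.75 in TgCRND8, against 6.12, 6.0, 5.79 and 6.45 in controls. The day 70 TgCRND8 arrays lay within 0.19 log2 of each other, while the controls of that day spanned 0.93.

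Kl codes for klotho, a co-receptor for a hormone of phosphate balance, and is also known from neurons. Probe set 1423400_at read 3.63, 3.62, 3.33 and 3.46 in TgCRND8 of day 70, against 3.97, 3.57, 3.33 and 4.17 in controls. At day 80 it read 4.05, 3.41, 3.53 and 3.78 in TgCRND8, against 3.95, 3.61, 3.09 and 3.61 in controls. At day 150 it read 4.14, 3.39, 3.56 and 3.97 in TgCRND8, against 4.01, 3.80, 3.30 and 3.81 in controls. Again the genotypes overlapped at all ages. Kl lay nearer to the lower quartile than Ttr, Folr1 or Clic6 did.

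The water channel gene Aqp1 (1416203_at) ranged from 2.85 to 3.49 log2, the bicarbonate cotransporter gene Slc4a5 (1435420_at) from 2.68 to 3.20 and the homeobox gene Otx2 (1425926_a_at) from 2.87 to 3.39. Slc4a5 read 3.20, 2.81, 2.91 and 2.91 in TgCRND8 of day 150, against 2.96, 2.68, 2.74 and 2.78 in controls. Those groups overlapped too. No genotype comparison at 1 age separated the arrays of any of these 3 genes.

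**Figure D1:**
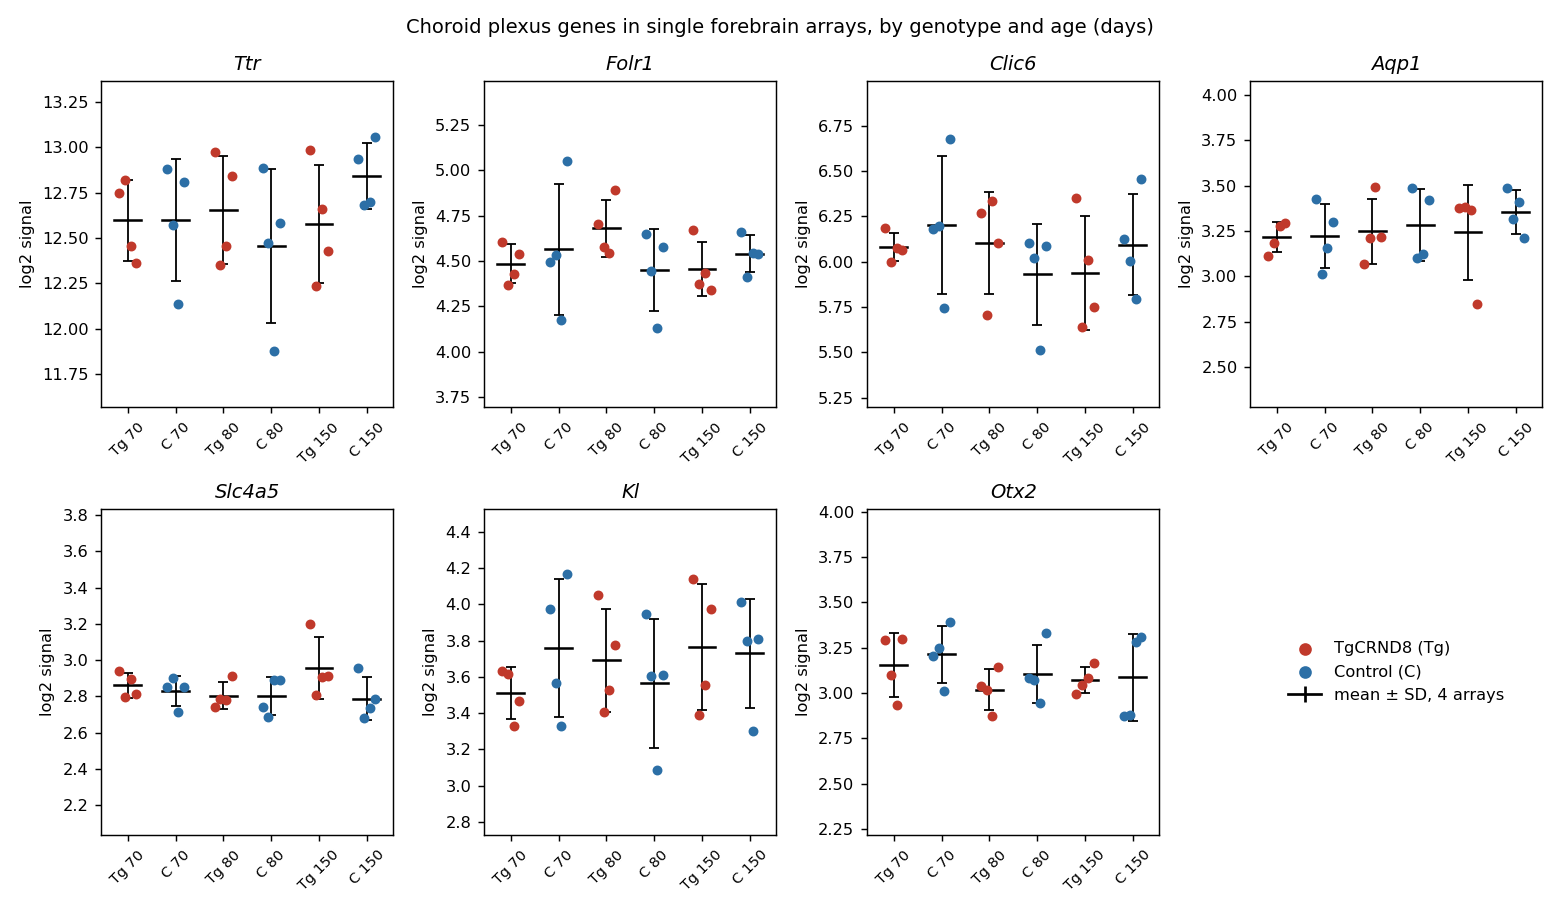
Log2 signal of the 7 measured choroid plexus genes in each of 24 forebrain arrays, by genotype (Tg, TgCRND8; C, control) and age in days. Points are arrays in the order of their replicate numbers, bars are group means with SD (n = 4), and every panel spans the same number of log2 units. Ttr, Folr1, Clic6 and Kl spread widely within groups and the genotypes overlap at each age.

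The design sets TgCRND8 forebrain against that of littermates at each age. No choroid plexus gene passed at any age. At day 70 the 7 members differed by a median of -0.06 log2, with 1 higher and 6 lower in TgCRND8. At day 80 the median was 0.13, with 5 higher and 2 lower, and at day 150 it was -0.09, with 2 higher and 5 lower. Over all genes the median differences were 0.00 at each of these ages, and median absolute differences were 0.059, 0.064 and 0.062 log2. Those of the members were 0.058, 0.127 and 0.111. Ttr, Kl, Clic6 and Folr1 had within-group SDs of 0.205 to 0.313 log2, against a median of 0.14 over all genes. These genes also varied together over arrays, so the counts and medians are not those of independent genes.

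Ttr differed between genotypes by 0.00 log2 at day 70 (95% confidence interval -0.39 to 0.39), by 0.20 at day 80 (-0.19 to 0.59) and by -0.26 at day 150 (-0.66 to 0.13). Its standard error at 1 age was 0.19 log2, against a median of 0.0977 over all genes. The other 3 Ttr probe sets had day 150 differences of -0.24, -0.25 and -0.19, and day 80 differences of 0.30, 0.21 and 0.15. Differences up to the bounds of the intervals are within what the arrays allow.

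Folr1 had the smallest p at day 80, higher by 0.23 log2 (interval -0.04 to 0.50; 4.68 ± 0.16 in TgCRND8 and 4.45 ± 0.23 in controls, SD, n = 4 each; exact permutation p = 0.143). Clic6 differed by -0.12, 0.17 and -0.16 at days 70, 80 and 150, and its dimmer probe set by -0.08, 0.24 and -0.20. Kl differed by -0.25 at day 70 (interval -0.65 to 0.15), by 0.13 at day 80 and by 0.03 at day 150. The second Kl probe set differed by 0.03, 0.03 and -0.10 at those ages.

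Slc4a5 had the smallest p of any member at 1 age. It was higher by 0.17 log2 at day 150 (interval -0.0013 to 0.34; 2.96 ± 0.17 in TgCRND8 and 2.79 ± 0.12 in controls, SD, n = 4 each; exact permutation p = 0.171), at a level below the lower quartile of every array. Between arrays of the same number it was higher in TgCRND8 in 4 of 4 pairs, by 0.25, 0.13, 0.17 and 0.13, as were 8.3% of all genes. With the replicate number as a block, the Slc4a5 genotype difference at day 150 had an adjusted p of 0.971 by limma. Ttr was higher in 1 of these 4 pairs. Without TgCRND8 array number 1 of day 150 the Slc4a5 difference was 0.09. Aqp1 differed by -0.11 and Otx2 by -0.01 at day 150. Without TgCRND8 array number 4 of day 150, the lowest of all for Aqp1, its difference was 0.020.

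By limma with Benjamini-Hochberg adjustment over all 18193 genes, 0 of 7 members passed at day 70 (0% of all genes passed), 0 of 7 at day 80 (0%) and 0 of 7 at day 150 (0.121%). No member had an unadjusted p under 0.05 by limma at any of these ages, where 3.25%, 3.77% and 4.38% of all genes did. For the mean of the 3 ages 0 of 7 passed (0.0385% of all genes). Ttr then differed by -0.02 log2 (interval -0.25 to 0.20). Adjusted p for the members was 0.999 or 1 in these 4 comparisons by limma. An exact permutation test of 4 against 4 arrays cannot give a p below 0.0286, and it gave no member a p under 0.05.

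**Figure D2:**
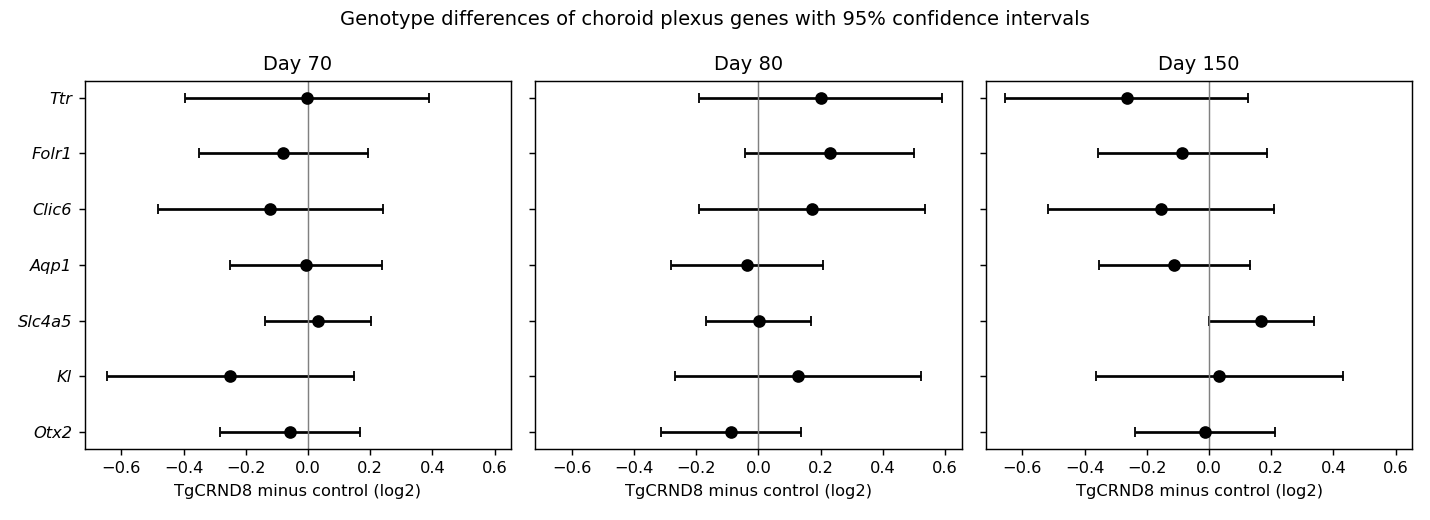
Genotype difference (TgCRND8 minus control, log2) of each measured choroid plexus gene at days 70, 80 and 150, with 95% confidence intervals from limma on 24 arrays. Every interval includes 0, and those of Ttr, Clic6 and Kl are the widest.

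The order of the Ttr group means was day 150 controls (12.84 log2), day 80 TgCRND8 (12.66), day 70 TgCRND8 and day 70 controls (12.60 each), day 150 TgCRND8 (12.58) and day 80 controls (12.45). Neighbours in this order differed by 0.19 or less, beside a standard error of 0.19 for a difference of 2 group means. The within-group SD of single arrays was 0.308. In controls Ttr was higher at day 150 than at day 80 by 0.39 log2 (12.84 ± 0.18 against 12.45 ± 0.42, SD, n = 4 each; interval -0.0033 to 0.78). It was higher at day 150 than at day 70 by 0.24 (interval -0.15 to 0.63) and differed by -0.15 between days 80 and 70. In TgCRND8 Ttr differed by 0.06 for day 80 minus 70, by -0.02 for day 150 minus 70 and by -0.08 for day 150 minus 80. Folr1 differed by -0.23 for day 150 minus 80 in TgCRND8 (interval -0.50 to 0.05), and Clic6 by -0.27 for day 80 minus 70 in controls (interval -0.63 to 0.09).

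The day 150 controls enter both the genotype difference of that age and the control age differences, so these values are not independent. Without control array number 3 of day 80, the lowest Ttr array, the difference between days 150 and 80 in controls was 0.20.

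By limma with Benjamini-Hochberg adjustment 0 of 7 members passed for age in TgCRND8, where 0%, 0.0879% and 0.022% of all genes passed for day 80 against 70, day 150 against 70 and day 150 against 80. In controls 0 of 7 passed in these 3 comparisons, where 0%, 0.022% and 0% of all genes did. For a change of the genotype difference between ages, 0 of 7 passed from day 70 to 80 (0% of all genes), from day 70 to 150 (0.011%) and from day 80 to 150 (0.0055%). The Ttr genotype difference at day 150 minus that at day 80 was -0.47 (interval -1.02 to 0.09; adjusted p = 0.908 by limma). No member had an unadjusted p under 0.05 in any of the 13 comparisons by limma.

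Members varied more between mice of the same group than between groups. The within-group SD was 0.308 log2 for Ttr, 0.313 for Kl, 0.284 for Clic6 and 0.205 for Folr1, against a median of 0.14 over all genes. Only 1.18% of all genes had a larger SD than Ttr, 1.06% than Kl, 1.81% than Clic6 and 10.6% than Folr1. The 6 groups took up 15.9% of the variance of Ttr, 16.6% of Folr1, 13.1% of Clic6 and 11.6% of Kl. Otx2 had 16.2% and Aqp1 8.24%, while Slc4a5 had 26.8%, beside 19.1% for the median gene. Slc4a5, Otx2 and Aqp1 had SDs of 0.109, 0.162 and 0.18.

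Over single arrays Ttr, Kl, Clic6 and Folr1 rose and fell together. After the group mean was taken from each array, Ttr had a Pearson r of 0.838 with Kl (Spearman rho 0.821), 0.77 with Clic6 (rho 0.699) and 0.707 with Folr1 (rho 0.655), n = 24 arrays. Folr1 had r = 0.741 with Clic6 and 0.688 with Kl, and Clic6 had r = 0.733 with Kl. The control arrays numbered 3 of days 70 and 80 were low for all 4 genes, and TgCRND8 array number 1 of day 150 was high for all 4.

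Permuting arrays within groups, two-sided and with Benjamini-Hochberg adjustment over 21 pairs, gave adjusted p = 0.00084 for Ttr with Kl (unadjusted p = 4e-05) and 0.0021 for Ttr with Clic6 (unadjusted p = 0.0002). The 4 other pairs among these genes each had adjusted p = 0.00626 by the same permutation test, and Folr1 with Otx2 (r = 0.511) had 0.0448. For rho, the permutation test gave adjusted p = 0.00168 for Ttr with Kl and 0.0656 for Folr1 with Otx2. In all 7 pairs passed by r and 6 by rho. Such a permutation takes the arrays of a group as exchangeable. Ttr, however, lay above its group mean in all 6 arrays numbered 1 and in 1 of 6 numbered 3. These p, and those of the same test below, may thus be too small. Without the 2 arrays farthest from the median of Ttr, r was 0.775 with Kl, 0.672 with Clic6 and 0.556 with Folr1. On values without the group mean removed, r was 0.781, 0.729 and 0.663 in that order. Folr1 with Otx2 had r = 0.368 without the 2 arrays farthest from the median of Folr1. Otx2 lay below the lower quartile in 16 arrays.

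The other members joined less. Ttr had r = 0.339 with Slc4a5, 0.337 with Otx2 and 0.213 with Aqp1 (permutation adjusted p = 0.314, 0.28 and 0.523), and Aqp1 with Otx2 had -0.145. The probe sets of a single gene were alike for Ttr, where the 6 pairs had r from 0.947 to 0.984. The 2 Clic6 probe sets had r = 0.51 and the 2 Kl probe sets 0.211. With Ttr, the dimmer Clic6 probe set had r = 0.542, against 0.77 for the brighter. The second Kl probe set, at 2.97 to 3.48 log2, had r = 0.102 with Ttr, so the likeness of Kl to Ttr rests on its brighter probe set.

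**Figure D3:**
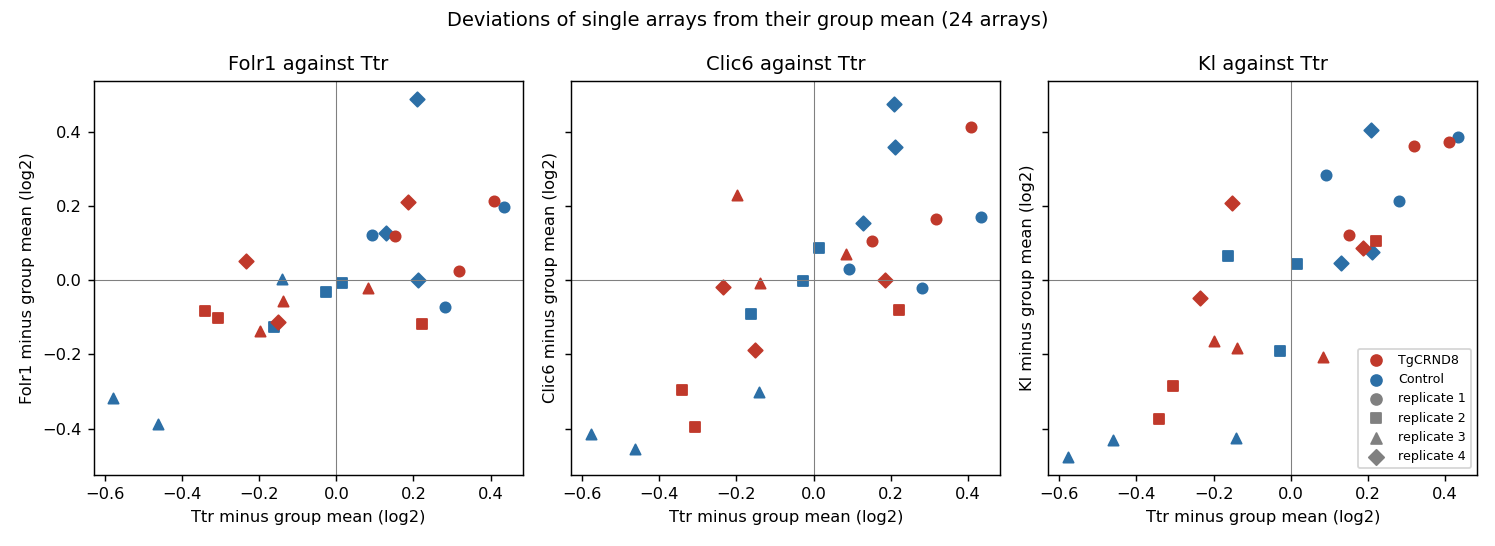
Deviation of each array from its group mean (log2) for Folr1, Clic6 and Kl against that of Ttr, 24 arrays, coloured by genotype and with a symbol for each replicate number. All 3 genes run along with Ttr, and the 6 arrays numbered 1 lie to the right of 0 on the Ttr axis.

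This co-variation moved with an axis that many other genes shared. The first principal component of all other genes, taken on values minus the group mean and turned so that Ttr is positive, held 25.3% of their variance. Ttr had r = 0.827 with it (rho 0.81; permutation adjusted p = 0.000735 over 7 genes), Kl 0.854 (rho 0.839; 0.00028), Folr1 0.708 (rho 0.633; 0.01) and Clic6 0.585 (rho 0.514; 0.0323, permutation test). By rho the permutation test gave Clic6 an adjusted p of 0.0546. Of the other genes 14.4% had an r with it beyond 0.7 in either direction. Without the 2 arrays farthest from each gene's median, r was 0.74, 0.802, 0.642 and 0.455.

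With this component removed, Ttr had r = 0.629 with Clic6, 0.449 with Kl and 0.305 with Folr1, and 0 of the 21 pairs passed by permutation. Folr1 with Clic6 then had r = 0.571 and Clic6 with Kl 0.554, each with permutation adjusted p from 0.11 to 0.119 (unadjusted p = 0.00954 and 0.0227). This step was chosen after the data were seen.

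The component was set beside the replicate number in the labels. All 6 arrays numbered 1 were on its positive side and all 6 numbered 3 on its negative side, while 3 of 6 numbered 2 and 4 of 6 numbered 4 were positive. Ttr lay above its group mean in all 6 arrays numbered 1, in 2 of 6 numbered 2, in 1 of 6 numbered 3 and in 4 of 6 numbered 4. With replicate number taken out as a block, 5 of the 21 pairs still passed by permutation, and the r of Folr1 and Kl (0.398, permutation adjusted p = 0.305) did not. This permutation ran within groups only and did not keep the replicate means removed, so its p may be too small. What the replicate number stands for is not given in the labels.

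No correlation of a member with a measure of RNA quality passed. The 3' minus 5' log2 signal of the Gapdh control probe sets lay between -0.126 and -0.0295 over the 24 arrays, and that of Actb between 0.663 and 0.877. Ttr had r = -0.114 with the first (rho -0.207, permutation adjusted p = 0.927 over 7 genes) and -0.094 with the second (rho -0.1, permutation adjusted p = 0.846). The r largest in size was that of Folr1 with Actb, -0.376 (rho -0.266, permutation adjusted p = 0.846). Without the 2 arrays farthest from its median, Folr1 had -0.171 with Actb and 0.445 with Gapdh. Xist, an RNA of female cells, was at 3.07 to 3.50 log2 in 5 arrays and at 9.36 to 9.85 in the other 19. In those 5 arrays Ttr read 12.97 and 12.46 (TgCRND8 of day 80), 12.89 and 12.58 (controls of day 80) and 12.81 (control of day 70). No day 150 array was among them. Comparisons of day 80 with other ages were thus unbalanced for Xist, as was the genotype comparison of day 70. So were day 150 against day 70 in controls and the mean or changes of the genotype difference that use the day 70 controls. Without these 5 arrays the r of Ttr and Folr1 was 0.756 and the r of Ttr and Kl 0.784, and 3 of 21 pairs passed by permutation.

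**Figure D4:**
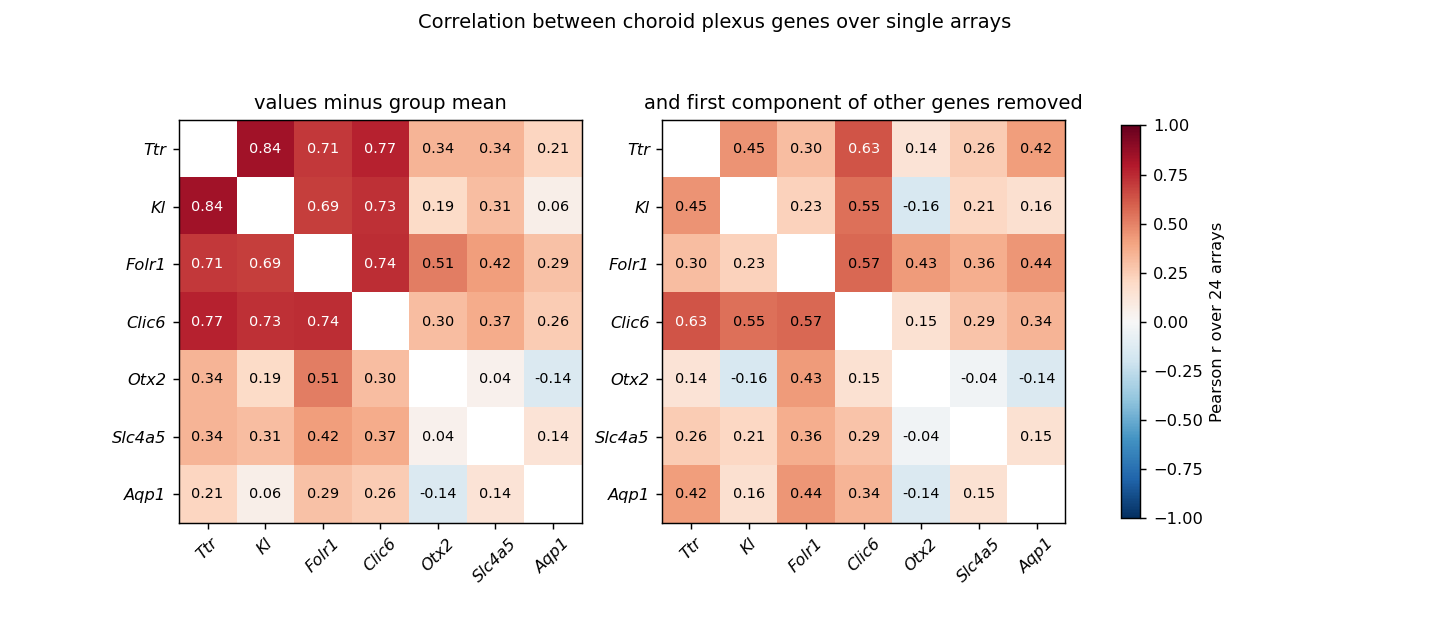
Pearson r between the 7 measured choroid plexus genes over 24 arrays, on values minus the group mean (left) and after the first principal component of all other genes was removed as well (right). Ttr, Kl, Folr1 and Clic6 form a block of r from 0.688 to 0.838 on the left, and on the right the highest r is that of Ttr with Clic6, 0.629.

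The pairs can be read against all genes. Of the 18192 genes other than Ttr, 12.4% had r over 0.5 with Ttr and 4.05% had r of 0.7 or more. Kl's r with Ttr was reached by 0.247% of genes, that of Clic6 by 1.63% and that of Folr1 by 3.84%. Seen from Clic6, 0.088% of genes were as like it as Ttr, 0.192% as Folr1 and 0.231% as Kl. Folr1 was matched as well as by Clic6 by 0.874% of genes, by Ttr by 1.72% and by Kl by 2.22%. For Kl these shares were 0.319% for Ttr, 3.49% for Clic6 and 5.37% for Folr1.

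Other genes known from choroid plexus epithelium were set beside Ttr as a list. Of 37 measured, 3 had r over 0.5 with it, close to the 12.4% of all genes. These were the carbonic anhydrase gene Car12 (0.698), Sostdc1 (0.598) and the sulfatase gene Sulf1 (0.573). The median r of the list was 0.04, against -0.06 over all genes, and the mean level of the list had r = 0.391 with Ttr. Kcnj13 had 0.212, Tmem72 0.135 and Igf2, also made in meninges, -0.412. Several of the 37 are also known from neurons or other forebrain cells, such as the serotonin receptor gene Htr2c (-0.146).

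Of 17 genes of cerebrospinal fluid secretion, 8 had r over 0.5 with Ttr, beside 12.4% of all genes. Car12 and Kcnj13 are among the genes that this list shares with the one before. The 8 included Slc12a2 (0.823), the sodium, potassium and chloride cotransporter, the kinase gene Wnk1 (0.781), and the sodium pump subunit genes Atp1b2 (0.684) and Atp1b1 (0.599). Most of these are also known from neurons and glia. Of 11 endothelial genes 9 had r over 0.5, beside the same 12.4%, among them Vwf (0.805), Tek (0.736) and the tight junction gene Cldn5 (0.685). Their mean level ranged from 5.25 to 5.74 in TgCRND8 of day 80 and from 5.34 to 5.65 in controls, and its r with Ttr was 0.733. Vwf was dim (mean 3.50 log2) and lay below the lower quartile in 5 arrays.

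Of 16 genes of meninges and fibroblasts 0 had r over 0.5 and 6 had r under -0.5, among them Ogn (-0.677), Lum (-0.669) and Gjb2 (-0.604). Of 19 ependymal genes, from the ciliated lining of the ventricles, 0 had r over 0.5 and 3 had r under -0.5. For oligodendrocyte and myelin genes the counts were 4 and 3 of 14, for cerebellum and brainstem 0 and 4 of 15, for thalamus and habenula 1 and 2 of 12, for blood 0 and 0 of 3, and for pituitary 0 and 0 of 7. Over all genes 10.2% had r under -0.5. These r values describe 24 arrays that share the axis given above.

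**Figure D5:**
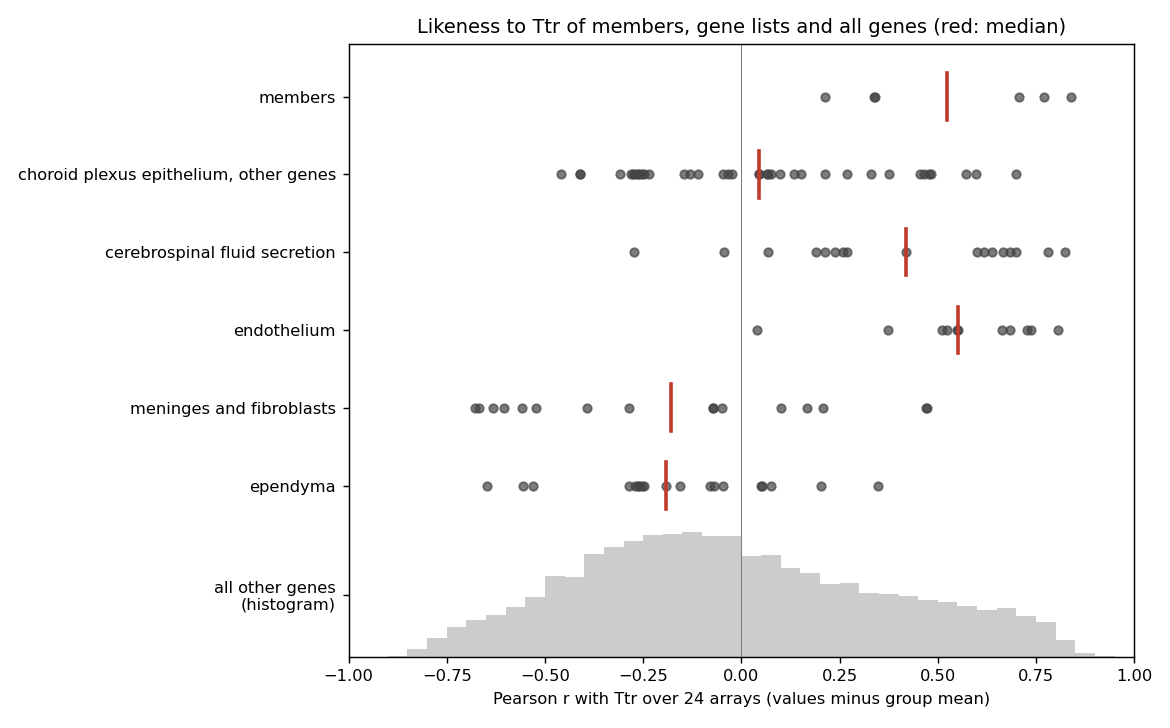
Pearson r with Ttr over 24 arrays (values minus the group mean) for the other 6 measured members, 5 gene lists and all other genes as a histogram scaled to fit. Points are genes and red lines are list medians. Kl, Clic6 and Folr1 lie above 0.7, while other choroid plexus genes spread around 0.04 and endothelial genes around 0.552.

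The genes most like the mean of the 7 members were ranked by Pearson r over the same 24 arrays. Ttr itself had r = 0.914 with that mean, Clic6 0.893, Folr1 0.886 and Kl 0.856, values that include each gene's own share of it. Slc4a5 (0.459), Otx2 (0.426) and Aqp1 (0.334) followed it less. The ranking is therefore mainly of likeness to Ttr, Clic6, Folr1 and Kl. Among genes outside the set, Podxl, coding for a surface sialomucin of vessels and podocytes, came first (0.915), followed by the splicing factor gene Srsf5 (0.912), the chaperonin subunit gene Cct6a (0.896), Plagl1 (0.879) and the glutamate transporter gene Slc1a1 (0.878). Ganab, Srrt, Atad3a, Slc7a14, Kmt2b, Fam160b2, Pdcd6ip, Ddx1, Col4a2 and Gria1 had r from 0.843 to 0.872. The lowest r belonged to Nop10 (-0.879), Zfp652os (-0.864), 2410017I17Rik (-0.848), Cmpk1 (-0.835) and Mrpl20 (-0.832). Of these 20 genes none was on the list of other choroid plexus genes, and their r with the first component was 0.741 to 0.951 for the like genes and -0.955 to -0.66 for the unlike ones.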

How the data were processed

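Forebrain RNA of 24 mice, 4 per genotype and age, was hybridised to Affymetrix mouse arrays with biotin-labelled cRNA, per the labels' protocols. The authors deposited 1 table of log2 signals for 45101 probe sets, with array medians of 4.28 to 4.38. Its normalization, scaling and centring are not given in the sources used here. Columns were matched to mice by sample name, and 0 were left over. The number of arrays limits the precision.

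The 64 array controls were left out of the tests. Probe sets with exactly 1 symbol in GEO's platform annotation (34945) were kept, and the brightest per gene was used. All arrays entered 1 limma fit of 6 group means (18 residual and 7.47 prior degrees of freedom), with an adjusted p under 0.05 as threshold over 18193 genes. Correlations used 100000 permutations. A lower quartile is that of all probe sets of an array but the controls. The fit was tested on simulated data.

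The members and gene lists were chosen with earlier results of these data known. Named genes are all measured members, list genes by the order of the list, by passing or by their likeness to Ttr (the last chosen after values were seen), the 15 genes most like the mean of the members and the 5 least like it. Same-numbered TgCRND8 and control arrays deviated together at day 150 (r 0.137 to 0.256 over genes), where numbers were taken to pair arrays. At day 70 (-0.321 to 0.292) and day 80 (-0.231 to 0.479) the sign of r was mixed. Number 1 at day 70 (0.292) and numbers 1 and 3 at day 80 (0.479 and 0.372) had higher r than any number at day 150. Nothing in the labels says that a number marks a litter or day. Alternatives were quantile normalization, median centring, the mean of a gene's probe sets, all probe sets, no dim genes (lowest 40%), trend and robust variance, array weights, replicate block, Xist as covariate, only the arrays compared, an adjusted p under 0.10 and leaving out each array.

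The software was limma 3.58.1 in R 4.3.3, and Python 3.11.15 with numpy 2.4.6, pandas 2.3.3, scipy 1.17.1 and matplotlib 3.10.9.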

Additional observations from a re-analysis of the deposited data

Results flagged for a closer look

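In 2 of 42 sets of 4 arrays, 1 array lay far from the other 3. Chance alone gives such an array in about 1 in 20 sets. Clic6 read 5.51 in control array number 3 of day 80, against 6.02, 6.08 and 6.10 in the other controls of that day. The same array had the lowest Ttr, Folr1 and Kl of all 24. Aqp1 read 2.85 in TgCRND8 array number 4 of day 150, against 3.36, 3.38 and 3.38 in the others of that group, at a level near the lower quartile of the arrays.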

How the results depend on the processing

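No member passed in any of the 13 comparisons under any alternative run, the replicate block included, and exact permutation gave 0 members a p under 0.05. Of the 21 pairs of members 7 passed, 6 to 7 with 1 array left out and 6 with Spearman's rho or without removing group means. After quantile normalization 9 passed. With the replicate block 5 did, by a permutation within groups only that may give too small a p. The permutations of the other settings took no account of the replicate number either, and their p may be too small too. Of the alternatives added after the data were seen, removing the first principal component left 0 pairs and leaving out the 5 arrays with low Xist left 3. Over all genes 22 passed between genotypes at day 150, 35 with array weights and 12 to 27 with 1 array left out. With the replicate block the count of members that passed stayed 0 in every comparison, and Folr1 with Kl was the pair among Ttr, Folr1, Clic6 and Kl that no longer passed.

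Genotype differences near 0 changed sign under single settings, with no call. At day 70 Ttr was 0.027 after quantile normalization and 0.079 with Xist as covariate, Aqp1 was 0.057 with array weights and 0.037 with Xist, and the Slc4a5 genotype difference at day 70 was -0.00608 with array weights. At day 80 Slc4a5 was -0.022 after quantile normalization and -0.023 after median centring. At day 150 Otx2 was 0.019 and 0.010 under these, and Kl was -0.031 with the mean of its probe sets. With 1 array left out the day 70 ranges were -0.16 to 0.091 for Ttr, -0.21 to 0.084 for Folr1, -0.27 to 0.038 for Clic6, -0.077 to 0.061 for Aqp1, -0.0067 to 0.055 for Slc4a5 and -0.13 to 0.016 for Otx2. At day 80 they were -0.12 to 0.032 for Aqp1, -0.038 to 0.030 for Slc4a5 and -0.032 to 0.26 for Kl. At day 150 they were -0.16 to 0.020 for Aqp1, -0.11 to 0.16 for Kl and -0.084 to 0.062 for Otx2. Ttr in controls between days 80 and 70 ranged from -0.30 to 0.047. The causes were not tested.

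Signals of Slc4a5, Otx2 and Aqp1 near the dim end of the arrays and 4 mice per group limit what can be seen. Which of normalization, scaling and centring the authors used is unknown.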

Other observations

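Of the genes that work with the members none passed between genotypes by limma at any age. For thyroid hormone and retinol transport, the pathway of Ttr, 7, 3 and 7 of 16 genes were higher in TgCRND8 at days 70, 80 and 150, and the first of the list, the retinol-binding protein gene Rbp4, differed by 0.15, -0.05 and 0.15 log2. Of 11 genes around klotho, 5, 4 and 4 were higher, and the klotho-like co-receptor gene Klb differed by -0.20, 0.07 and -0.12. Of 12 folate genes 5, 9 and 5 were higher, and the folate receptor gene Folr2, first of the list, differed by 0.10, 0.14 and -0.03. Of 11 genes of lysophosphatidic acid signalling, which the Enpp2 product feeds, 7, 7 and 5 were higher, and the receptor gene Lpar1 differed by -0.15, -0.09 and -0.11. Of 17 genes of cerebrospinal fluid secretion 6, 9 and 7 were higher, and Slc12a2 differed by -0.19, -0.02 and -0.11. Medians of these 5 lists lay between -0.058 and 0.065 log2, beside 0.00 over all genes.

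The 37 other choroid plexus genes had 18, 21 and 14 members higher in TgCRND8 at days 70, 80 and 150, with medians of -0.0026, 0.007 and -0.084 log2, and 0 passed in each by limma (0%, 0% and 0.121% of all genes passed). Kcnj13 differed by -0.04, 0.20 and -0.08 and Sostdc1 by -0.27, -0.01 and 0.13. For day 150 against day 70, 1 of 16 genes of meninges and fibroblasts passed in TgCRND8 (0.0879% of all genes did) and 4 of 14 myelin genes in controls (0.022%), by limma with Benjamini-Hochberg adjustment, all of them lower at day 150. The collagen gene Col3a1 differed by -0.67 in TgCRND8 (adjusted p = 0.0468), and Mog, Mal, Ugt8a and Tspan2 by -0.70, -0.49, -0.54 and -0.41 in controls (adjusted p from 0.0165 to 0.0409). With each of 24 arrays left out in turn, Col3a1 did not pass in 15 fits, Mog in 17, Mal in 6, Ugt8a in 3 and Tspan2 in 14. In controls no gene passed without control array number 4 of day 70, or without number 2 or number 4 of day 150. That day 70 array was the only one of this comparison with low Xist (3.26 log2). The part of this imbalance in the myelin calls was not tested. After quantile normalization Mog and Tspan2 did not pass (adjusted p = 0.0611 each by limma).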
